A study of Mus musculus with 6 samples.

Results

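Expression of 10 Wnt pathway genes was examined in cultured mouse keratinocytes lacking SOX4, SOX11 or both: the ligands *Wnt4*, *Wnt5a*, *Wnt7b* and *Wnt10a*, the receptors *Ror2*, *Fzd6* and *Fzd10*, and the effectors and response genes *Axin2*, *Lef1* and *Tcf7l1*. The genes were found on the arrays through the RefSeq accession of each non-control probe, which gave 13 probes for the 10 genes among 55681 probes in all. They were chosen by results already known from these arrays. *Ror2* is on the study's list of SOX target genes, which was drawn partly from these same arrays and kept genes changed in dcKO cells alone. The list also required a change in embryonic dcKO epidermis, SOX11 and/or SOX4 binding by ChIP-seq, and higher expression in embryonic epidermis and at the wound edge. *Ror2* values from these arrays are therefore given as a description with no test. Skin primary keratinocytes were isolated from newborn pups, grown on J2 feeder fibroblasts and then passaged without feeders. Per the study's methods, mice with the floxed alleles were of mixed 129SvEx:C57BL/6 strain and were crossed to Krt14-Cre mice of FVB/N strain. Sox4cKO, Sox11cKO and Sox4/11 dcKO cells carry conditional alleles deleted by Krt14-Cre, a recombinase active in keratin 14-positive epithelial cells, and wild-type control keratinocytes were hybridised against each of them. Each genotype had 2 two-colour arrays, labelled biological replicates, with the knockout RNA in Cy5 on array 1 and in Cy3 on array 2. The labels do not say how many pups each culture came from, or whether arrays share a wild-type culture. Cultures are bulk samples, so fewer expressing cells and less RNA per cell cannot be told apart.

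Wnt proteins are secreted, lipid-modified ligands that bind Frizzled receptors together with co-receptors. With LRP5 or LRP6 they stabilise beta-catenin, which acts with TCF/LEF factors on targets such as *Axin2*. With ROR2, a receptor tyrosine kinase that binds WNT5A, they act without beta-catenin on cell polarity and movement. In skin, Wnt signals are known for their part in hair follicle formation and in the upkeep of basal epidermal cells.

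Promoter sequence was printed for *Ror2*, *Wnt4* and *Fzd7*, which differed between dcKO and wild-type cells and have a single start in the RefSeq table used, to show what lies next to the genes that moved. Of the 10 genes, 6 are in that table. The 250 bases before each start are given 5′ to 3′ on the gene's strand, from RefSeq on GRCm38.p6, at chr13:53286125-53286374 (minus strand) for *Ror2*, chr4:137277385-137277634 (plus strand) for *Wnt4* and chr1:59481897-59482146 (plus strand) for *Fzd7*. Capitals mark matches, on either strand, to ACAAAG or ACAATG, core motifs bound by SOX factors, or to TCAAAG, the TCF/LEF core.
Ror2: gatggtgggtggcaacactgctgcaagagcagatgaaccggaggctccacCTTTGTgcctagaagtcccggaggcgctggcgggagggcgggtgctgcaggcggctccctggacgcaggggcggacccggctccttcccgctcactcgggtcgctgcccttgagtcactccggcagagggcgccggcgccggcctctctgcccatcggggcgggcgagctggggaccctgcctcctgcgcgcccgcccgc
Wnt4: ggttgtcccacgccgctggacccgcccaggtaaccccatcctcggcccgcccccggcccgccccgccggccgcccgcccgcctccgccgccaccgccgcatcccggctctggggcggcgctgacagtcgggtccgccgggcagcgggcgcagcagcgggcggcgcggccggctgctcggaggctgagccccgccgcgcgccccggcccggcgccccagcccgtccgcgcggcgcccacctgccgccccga
Fzd7: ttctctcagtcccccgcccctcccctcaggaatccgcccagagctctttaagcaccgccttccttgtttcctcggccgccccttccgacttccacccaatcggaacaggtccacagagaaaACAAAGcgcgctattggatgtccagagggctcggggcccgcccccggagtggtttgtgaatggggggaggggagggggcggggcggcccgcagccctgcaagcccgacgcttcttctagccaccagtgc
*Ror2* held 1 match to ACAAAG, on the opposite strand and starting 200 bases before the start. *Fzd7* held 1 on its own strand, starting 129 bases before the start, and *Wnt4* held none of the 3 motifs in a window that was 85.2% G or C. ACAAAG and TCAAAG share 5 letters, and no match here was to both. Of 32851 RefSeq promoter windows of the same length, 16.5% held ACAAAG, 10.7% ACAATG and 13.8% TCAAAG, and 25.2% held at least 1 of the 2 SOX cores, so a match is a common feature and is given as a description only.

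Signals were well above background on 35.1% to 42.8% of probes in the knockout channels and on 37.3% to 45.0% in the wild-type channels, and no spot was saturated. *Sox4* fell in the Sox4cKO and dcKO cells (log2 change -2.52 in both) and *Sox11* in the Sox11cKO and dcKO cells (-2.98 and -3.43), as the labels have it. All 7 basal keratinocyte markers looked at, among them *Krt5*, *Krt14* and *Trp63*, were well above background in all 12 channels. Of these, *Krt15* was called lower in Sox4cKO cells (log2 ratios -1.52 and -1.64) and read 0.88 and 0.81 in dcKO cells. Its wild-type level, as log2 intensity, ran from 5.68 to 10.59 over the arrays. Of 4 differentiation markers, *Krt10*, *Ivl* and *Lor* were above background in 12 channels and *Krt1* in 2. The melanocyte markers *Mlana* and *Pmel* were so in 11, *Tyr* in 8 and *Tyrp1* and *Dct* in 0. The immune marker *Cd3e* and the endothelial markers *Pecam1* and *Kdr* were so in 12, *Ptprc* in 1 and *Cd207*, *Lyz2*, *Tyrobp* and *Cdh5* in 0. Of 9 fibroblast markers, which feeder or dermal cells would bring, *Col1a1*, *Col3a1*, *Lum*, *Pdgfrb* and *Thy1* were above background in 0 of 12 channels, *Pdgfra* and *Dcn* in 1 each, *Vim* in 4 and *Col1a2* in 11. *Vim* was called lower in Sox4cKO cells (log2 change -2.27, adjusted p = 0.0337). The summed fibroblast signal, as linear intensity, was 285 to 329 in the dcKO channels and 295 to 299 in the wild-type channels of the same arrays, 280 to 284 and 276 to 304 for Sox11cKO, and 291 to 376 and 541 to 604 for Sox4cKO. At most 3 of the 9 markers were above background in any channel, so the sums hold much background signal and do not measure fibroblast content. The higher Sox4cKO wild-type sum came with *Vim*, at log2 intensities of 8.43 and 8.16 there. In the wild-type channels of the other genotypes' arrays *Vim* read 4.98 to 5.41.

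*Ror2* was the gene with the largest knockout to wild-type difference of the 10, and the difference was seen in dcKO cells. Its log2 ratio, knockout over wild type, was -2.86 and -3.20 on the 2 dcKO arrays, a mean of -3.03 ± 0.24 (SD, n = 2). On the Sox4cKO arrays the ratios were -0.04 and -0.00457, and on the Sox11cKO arrays -0.41 and -0.03. No channel of the single-knockout arrays was above background for *Ror2*, so that a fall could not have been seen there. In dcKO cells the probe was not well above background on either array, and wild-type cells were at least 7.83-fold higher. That bound sets the wild-type mean against the lowest signal that counted as above background on each array, or the dcKO signal where it was higher.

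The high *Ror2* values were all in wild-type channels. The level of the gene, as log2 intensity normalised within and between arrays, was 8.18 and 8.42 in the wild-type channels of the dcKO arrays. In the 4 wild-type channels of the single-knockout arrays it was 4.63 to 4.93, above background in 0 of 4. The dcKO channels read 5.32 and 5.22, and the Sox4cKO and Sox11cKO channels 4.46 to 4.92, none of them above background. *Ror2* was therefore detected in 2 of 12 channels, both wild type. Set against the other 4 wild-type channels in place of its own, the dcKO level was 0.45 higher on the log2 scale, a comparison between signals at background.

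*Wnt5a*, which encodes the best known ligand of ROR2, was called lower in dcKO cells. Its log2 ratio was -2.82 and -2.19 on the 2 dcKO arrays, a mean of -2.50 ± 0.45 (SD, n = 2; SE 0.20, limma adjusted p = 0.00255), which is 5.67-fold lower. Of all probes, 0.444% were called lower and 0.312% higher in dcKO cells, a call being an adjusted p below 0.05 with an absolute log2 change above 1.5. On the Sox11cKO arrays the ratios were -0.64 and -0.93, a mean of -0.78 ± 0.21 that did not pass (adjusted p = 0.346), and on the Sox4cKO arrays 0.23 and -0.11 (adjusted p = 0.977). Both dcKO channels were above background, so that a level remained. Without dcKO array 1 the change was -2.03 (adjusted p = 0.0508), and the call was lost.

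As for *Ror2*, the wild-type cells hybridised with dcKO cells had the high *Wnt5a* level. It was 9.24 and 8.05 in those channels and 5.26, 6.45, 6.63 and 6.15 in the other 4. The dcKO channels, at 6.42 and 5.87, lay within the range of those other 4, and the difference of the means was 0.02 on the log2 scale. The Sox4cKO channels read 5.49 and 6.34, and the Sox11cKO channels 6.00 and 5.22. No dcKO channel overlapped the wild-type channels of its own arrays, whereas every knockout channel of the 3 genotypes lay below both.

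**Figure D1:**
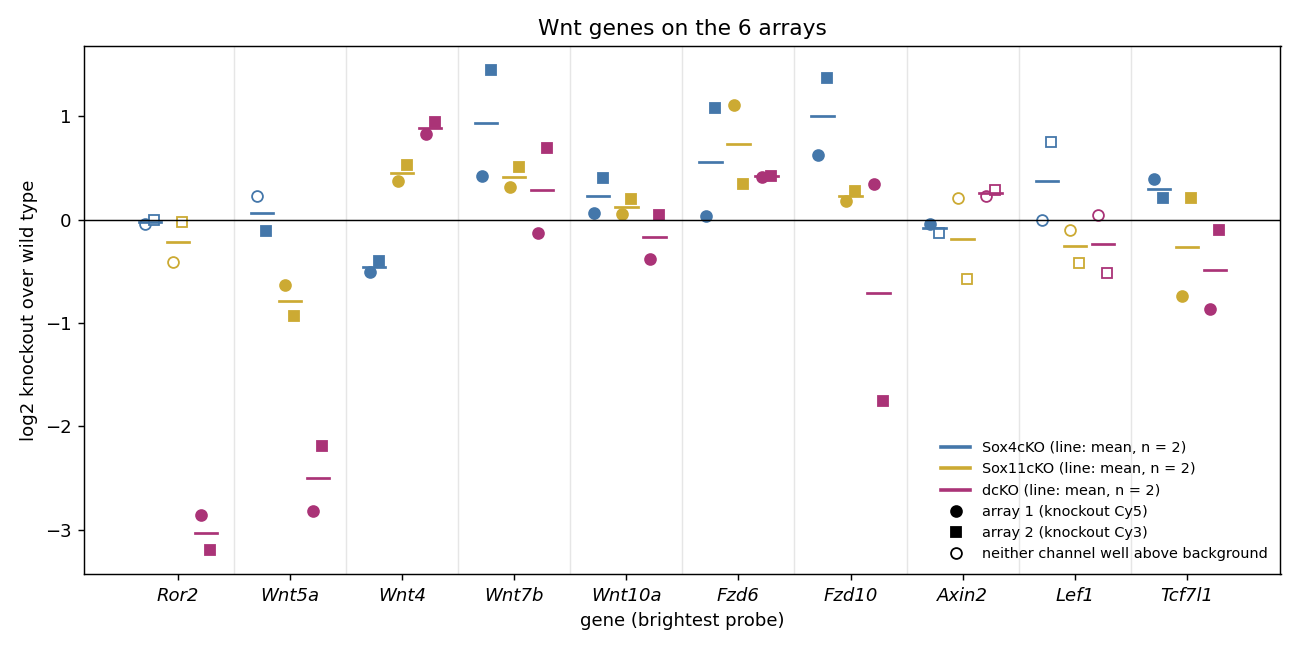
The log2 ratio of knockout over wild type (y axis) is plotted for the brightest probe of each of the 10 genes (x axis), with circles for array 1, squares for array 2, a line at the mean of the 2 arrays and open symbols where neither channel was well above background. *Ror2* (-2.86 and -3.20) and *Wnt5a* (-2.82 and -2.19) stand apart in dcKO cells, and *Wnt4* lies above 0 in dcKO and Sox11cKO cells and below 0 in Sox4cKO cells.

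**Figure D2:**
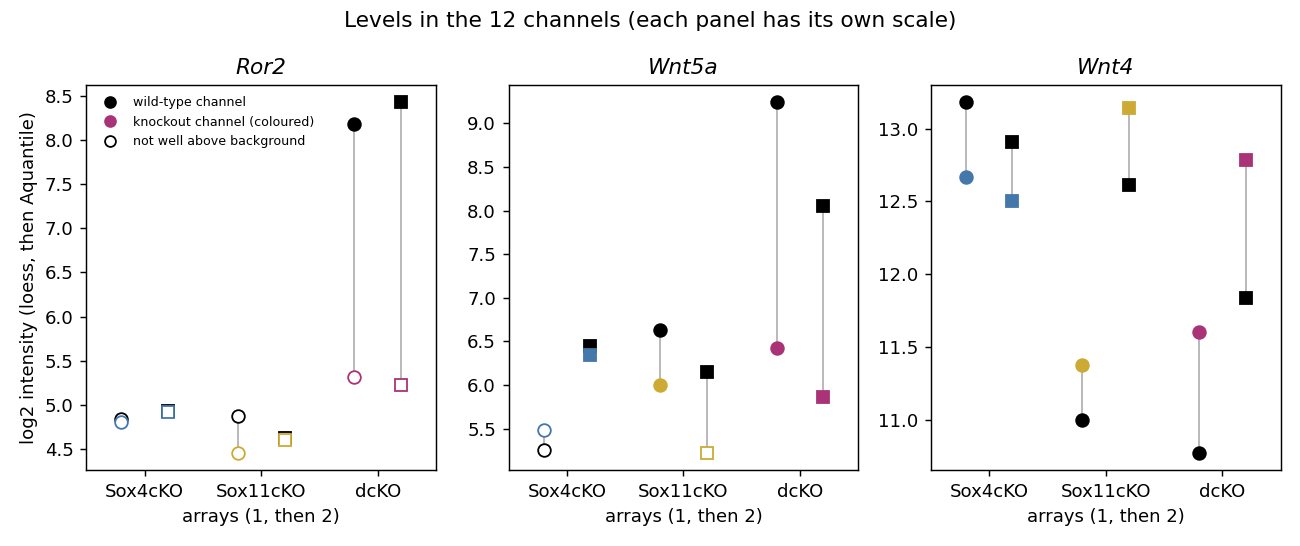
Log2 intensity after normalisation (y axis) is shown for *Ror2*, *Wnt5a* and *Wnt4* in the 12 channels, with black symbols for wild type, coloured symbols for knockout, a grey line joining the channels of 1 array and open symbols for signals not well above background. The wild-type channels of the dcKO arrays are the high ones for *Ror2* (8.18 and 8.42) and *Wnt5a* (9.24 and 8.05), while the *Wnt4* wild-type levels spread from 10.77 to 13.18.

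*Wnt4*, a ligand expressed by epithelial cells of several organs, moved the other way and by less. On the brightest of its 2 probes the log2 ratio was 0.83 and 0.94 in dcKO cells, a mean of 0.88 ± 0.08 (SD, n = 2; SE 0.14, limma adjusted p = 0.0275), or 1.85-fold. The second probe gave 1.07 and 1.14, with an adjusted p of 0.0284. Both passed the adjusted p and stayed under the fold threshold. In Sox11cKO cells the first probe read 0.38 and 0.53 (adjusted p = 0.487), and in Sox4cKO cells -0.51 and -0.40 (adjusted p = 0.513). On the second probe the Sox4cKO ratios were -0.79 and 0.02, so its arrays disagreed in sign there.

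*Wnt4* was above background in all 12 channels, and its wild-type level varied more between arrays than it differed within any. On the first probe the 6 wild-type channels read 10.77, 11.00, 11.84, 12.61, 12.91 and 13.18, of which 10.77 and 11.84 were on the dcKO arrays. The dcKO channels, at 11.60 and 12.78, lay inside that range. Against the mean of the 4 other wild-type channels dcKO cells were 0.23 lower on the log2 scale, the opposite direction to the ratio within arrays. With median centring in place of loess the ratio was 0.31 (adjusted p = 0.330), without dcKO array 1 or 2 it was 0.88 and 0.89 (adjusted p = 0.271 and 0.296), and without either Sox4cKO array the adjusted p was 0.0657.

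The other ligands did not pass in any genotype. *Wnt7b*, a ligand made by basal keratinocytes, had log2 ratios of 0.42 and 1.45 in Sox4cKO cells, a mean of 0.93 ± 0.73 (adjusted p = 0.192). It read 0.32 and 0.51 in Sox11cKO cells (adjusted p = 0.738) and -0.13 and 0.70 in dcKO cells (adjusted p = 0.630). Its level lay between 7.66 and 9.53 in the 12 channels, with the lowest value in a wild-type channel of a Sox4cKO array. *Wnt10a*, a ligand needed for hair, teeth and sweat glands, was the steadiest of the ligands here, with 6 ratios from -0.38 to 0.40 and levels from 13.40 to 14.35.

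Of the Frizzled receptors among the 10, *Fzd6* was higher in the knockout channel on all 6 arrays and passed in no genotype. FZD6 is a receptor known for orienting hairs. The log2 ratios were 0.03 and 1.08 in Sox4cKO cells, 1.11 and 0.35 in Sox11cKO cells and 0.41 and 0.42 in dcKO cells, with means of 0.56, 0.73 and 0.42 and adjusted p of 0.727, 0.642 and 0.649. The wild-type level of *Fzd6* was 7.80 and 8.05 on the dcKO arrays and 6.73 to 7.52 on the others.

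*Fzd10*, another Frizzled receptor, had arrays that disagreed. In dcKO cells its ratios were 0.34 and -1.76, a mean of -0.71 ± 1.49 (adjusted p = 0.588). In Sox4cKO cells they were 0.62 and 1.37 (adjusted p = 0.663), and in Sox11cKO cells 0.18 and 0.28 (adjusted p = 0.988). The dcKO channels read 7.16 and 6.29, so the sign on array 2 came with the highest wild-type level of the 6, 8.05. Wild-type *Fzd10* was not above background on both Sox11cKO arrays and on 1 Sox4cKO array.

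Of the effectors and response genes, *Axin2* and *Lef1* gave little signal in these cultures and *Tcf7l1* was measured. *Axin2*, a negative regulator that is itself induced by beta-catenin, was above background in 1 of 12 channels, the wild-type channel of Sox4cKO array 1, and its ratios ran from -0.58 to 0.28. *Lef1*, a TCF/LEF factor, was above background in 0 of 12 channels on either of its 2 probes, so a fall of it could not have been seen. *Tcf7l1*, the family member known as a repressor in skin stem cells, was above background in 11 of 12 channels. Its ratios were -0.86 and -0.10 in dcKO cells (mean -0.48, adjusted p = 0.405), -0.74 and 0.21 in Sox11cKO cells (adjusted p = 0.936) and 0.40 and 0.21 in Sox4cKO cells (adjusted p = 0.821).

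Counted over the genes, 6 of 10 were well above background on both arrays in at least 1 channel type for Sox4cKO, 7 for Sox11cKO and 8 for dcKO. Since the 10 were chosen with results of these arrays known, the counts that follow are a description of them only. In Sox4cKO cells 0 of 10 were called by limma and 0 passed the adjusted p alone, with 3 at an unadjusted p below 0.05. Of all probes, 0.101% were called lower and 0.0395% higher there, 0.12% and 0.0557% passed the adjusted p, and 7.4% had an unadjusted p below 0.05. In Sox11cKO cells 0 of 10 were called by limma and 0 passed, with 3 at an unadjusted p below 0.05, beside 0.0682% of all probes called lower, 0.018% higher, 0.088% and 0.0359% past the adjusted p and 6.84% at an unadjusted p below 0.05. In dcKO cells, of the 9 genes other than *Ror2*, 1 was called lower (*Wnt5a*) and 1 passed the adjusted p alone (*Wnt4*, higher). By adjusted p, 1.17% of all probes were lower and 0.882% higher, beside 456 and 313 of 21368 named genes by brightest probe. An unadjusted p below 0.05 was found for 2254 of these named genes in Sox4cKO and 2292 in Sox11cKO cells.

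The rest of the pathway was read from a list of 103 genes that includes the 10. That list too was set with earlier results of these data known, so its counts are a description. Of the 103 genes, 61 were above background in each genotype. In dcKO cells 2 of the 102 other than *Ror2* were called, both lower. Called over all probes were 0.444% lower and 0.312% higher, and of 21368 named genes by brightest probe 178 and 120. Past the adjusted p were 8 of the 102, 6 lower and 2 higher, beside 1.17% and 0.882% of all probes and 456 and 313 named genes. The lower ones besides *Wnt5a* were the receptor *Fzd7* (-1.51 ± 0.32, SD, n = 2, adjusted p = 0.0128), the kinase *Csnk1e* that acts on Dishevelled (-1.31 ± 0.18, adjusted p = 0.00900), the beta-catenin target and cell cycle gene *Ccnd1* (-1.26 ± 0.03, adjusted p = 0.0192), the Frizzled-removing ubiquitin ligase *Rnf43* (-1.08 ± 0.46, adjusted p = 0.0284) and the TCF/LEF factor *Tcf7* (-0.82 ± 0.49, adjusted p = 0.0363). The higher one besides *Wnt4* was *Dkk3*, a member of the Dickkopf family of secreted proteins, at 0.89 ± 0.48 (adjusted p = 0.0437). *Tcf7* was above background in 1 of the 4 channels of the dcKO arrays. On 1 of the 2 arrays neither channel was, so a fall could not have been seen there, and no bound is given. A second, dimmer probe of *Fzd7*, not above background in dcKO cells, gave -0.34 (adjusted p = 0.596), and 1 of the 2 other probes of *Csnk1e* gave -1.45 (adjusted p = 0.0248) and the dimmest -0.33 (adjusted p = 0.564). Without 1 dcKO array or the other, *Fzd7*, *Csnk1e*, *Ccnd1*, *Rnf43*, *Tcf7* and *Dkk3* each had an adjusted p of 0.0688 or more, and *Rnf43*, *Tcf7* and *Dkk3* also lost the threshold without either Sox4cKO array (0.0603, 0.0844 and 0.0892).

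By role, the dcKO medians lay between -0.47 and 0.13. The median log2 change was -0.07 for the 19 Wnt ligands, -0.47 for the 10 Frizzled receptors, -0.17 for the 13 beta-catenin core genes, -0.18 for the 12 nuclear effectors, -0.26 for the 10 planar cell polarity genes and 0.13 for the 15 secreted and membrane inhibitors, and it was -0.00347 over all probes. The Frizzled median was -0.38 in Sox11cKO cells, with 5 of 10 lower on both arrays beside 22.2% of all probes. In Sox4cKO cells it was 0.00594, with 3 of 10 lower on both beside 24.5%. Of the 102 genes other than *Ror2*, 40 were lower and 22 higher on both dcKO arrays. That was so for 28% and 27.5% of all probes, and for 6805 and 6087 of 21368 named genes by brightest probe. Lower on both were 5 of 10 Frizzled receptors, 7 of 13 core genes, 6 of 12 nuclear effectors, 7 of 10 polarity genes, 7 of 19 ligands, 3 of 9 genes of the R-spondin module, 1 of 3 ligand processing genes, 1 of 6 transcriptional targets, 1 of 15 inhibitors and, with *Ror2* counted, 3 of 6 co-receptors. Higher on both were 8 of 15 inhibitors, of which only 2 were above background. The polarity gene *Vangl2* read -0.91 on its brightest probe (adjusted p = 0.0786) and -1.05 on its second (adjusted p = 0.0247), which passed and was above background in all 4 channels of the dcKO arrays. The other ROR family receptor, *Ror1*, read 0.88 (adjusted p = 0.0705) and did not pass. Dimmer probes of the receptor *Fzd5* (-0.99, adjusted p = 0.0267) and of the corepressor *Tle1* (-0.84, adjusted p = 0.0463) passed where the brightest probes of these genes did not. These 4 genes were picked out after their values were seen.

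**Figure D3:**
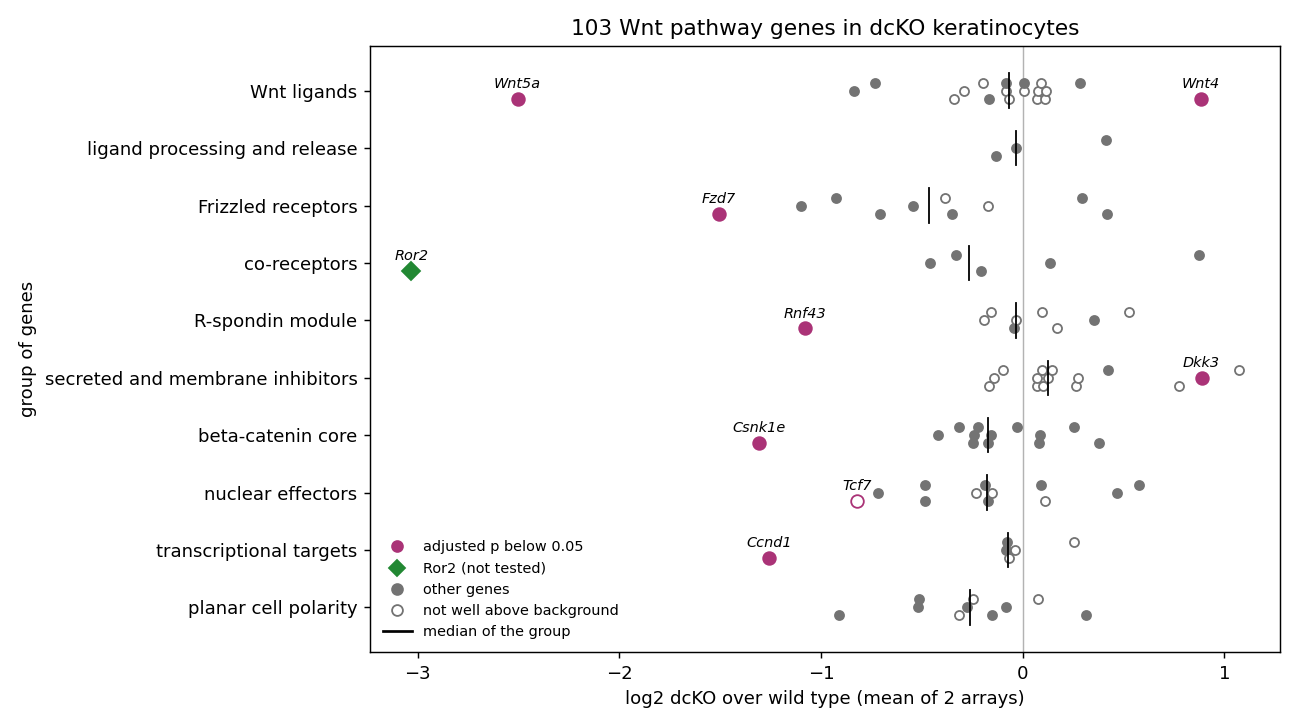
The mean log2 ratio of dcKO over wild type (x axis, 2 arrays) is shown for 103 Wnt pathway genes in 10 groups by role (y axis), with purple for an adjusted p below 0.05, a green diamond for *Ror2*, open symbols for genes not well above background on both arrays of a channel type and black bars at the group medians. *Ror2* (-3.03) and *Wnt5a* (-2.50) lie far from the other genes, whose groups centre between -0.47 and 0.13.

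In the single knockouts 0 and 2 of the 103 passed the adjusted p. In Sox4cKO cells 0 passed the limma adjusted p. There 11 had an unadjusted p below 0.05, beside 2254 of 21368 named genes by brightest probe. On both arrays 24 were higher and 26 lower, beside 24.3% and 24.5% of all probes and 5539 and 5404 named genes. The 5 largest ratios among genes above background were *Wnt7a* (1.20, adjusted p = 0.638), the receptor *Fzd1* (-1.05, adjusted p = 0.702), *Fzd10*, *Wnt7b* and *Porcn*, the acyltransferase that lipid-modifies Wnt proteins (0.77, adjusted p = 0.221). In Sox11cKO cells 17 were higher and 29 lower on both arrays, beside 22.2% of all probes each way and 4767 and 4875 named genes. An unadjusted p below 0.05 was found for 23 of 103, beside 6.84% of all probes and 2292 of 21368 named genes. There 2 passed the adjusted p, both lower. These were *Sostdc1*, a secreted BMP and Wnt antagonist (-3.67 and -6.27 on the 2 arrays, mean -4.97, adjusted p = 0.0145), and the receptor *Fzd3* (-1.18 and -1.39, mean -1.29, adjusted p = 0.0370). Neither was above background in Sox11cKO cells, and the bounds were at least 29.4-fold and 2.15-fold. The *Sostdc1* level was 8.52 and 11.56 in the wild-type channels of the Sox11cKO arrays and 4.74 to 6.27 in the other 4, so its high values too lay in the wild-type channels of 1 genotype. *Fzd3* lost the threshold without Sox11cKO array 2 (adjusted p = 0.0536), without either Sox4cKO array (0.0735) and without either dcKO array (0.0721). *Fzd1* read -1.47 (adjusted p = 0.530), and the polarity genes *Prickle1* and *Celsr2* -1.35 (adjusted p = 0.161) and -0.92 (adjusted p = 0.412).

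Whether the genotypes differed was tested on the ratios of both. For dcKO minus Sox4cKO, *Wnt5a* differed by -2.57 (SE 0.28, limma adjusted p = 0.0186) and *Wnt4* by 1.34 (SE 0.20, adjusted p = 0.0412). These are differences between ratios, and the knockout levels did not differ in the same direction. Mean *Wnt5a* was 6.14 in dcKO and 5.92 in Sox4cKO cells, against 8.65 and 5.85 in their wild-type channels. Mean *Wnt4* was 12.19 and 12.59, against 11.31 and 13.04. Such levels compare different arrays and have no test. The second *Wnt4* probe gave 1.49 with an adjusted p of 0.0602, which did not pass, and the second *Vangl2* probe gave -1.47 (adjusted p = 0.0466). Of the other genes on the list, *Ccnd1* (-1.97, adjusted p = 0.0271) and *Csnk1e* (-1.41, adjusted p = 0.0412) passed. Over all probes 0.366% were lower and 0.307% higher, and of 21368 named genes by brightest probe 149 and 116. *Wnt5a*, *Wnt4*, *Ccnd1* and *Csnk1e* all lost the threshold without either Sox4cKO array or without dcKO array 1 (adjusted p from 0.0785 to 0.380), and all but *Wnt5a* without dcKO array 2 (0.172 to 0.223). For dcKO minus Sox11cKO, *Wnt5a* differed by -1.72 and did not pass (adjusted p = 0.0616). There 0.212% of all probes were lower and 0.269% higher, and 88 and 92 of 21368 named genes by brightest probe. Of 102 genes 1 passed, *Sostdc1* (5.07, adjusted p = 0.0223). Both channels of the dcKO arrays were at background for *Sostdc1*, as were the Sox11cKO channels, so that this difference came from the wild-type channels of the Sox11cKO arrays and is not one between the knockout cells. Without dcKO array 2 the *Sostdc1* difference was 3.99 (adjusted p = 0.111). For Sox11cKO minus Sox4cKO 0 of 103 passed the limma adjusted p, beside 0.0108% of all probes. An unadjusted p below 0.05 was found for 19, beside 6.35% of all probes and 2031 of 21368 named genes by brightest probe. The *Ror2* ratio in dcKO cells differed from that in Sox4cKO cells by -3.01 and from that in Sox11cKO cells by -2.81, given with no test.

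The wild-type reference mattered for some of the genes that differed in dcKO cells and not for others. *Ccnd1*, like *Ror2* and *Wnt5a*, was high in the wild-type channels of the dcKO arrays (14.45 and 14.01, against 11.49 to 13.57 in the other 4), and the dcKO mean was 0.16 above the other wild-type mean. *Fzd7* and *Csnk1e* were lower in dcKO cells against either reference, by -1.51 and -1.14 for *Fzd7* and by -1.31 and -1.13 for *Csnk1e*. *Rnf43* was -1.08 against its own wild type and -2.00 against the others, *Tcf7* -0.82 and -0.39, and *Dkk3* 0.89 and 1.55. These second values compare channels of different arrays and have no test. What set the wild-type levels apart was not tested.

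**Figure D4:**
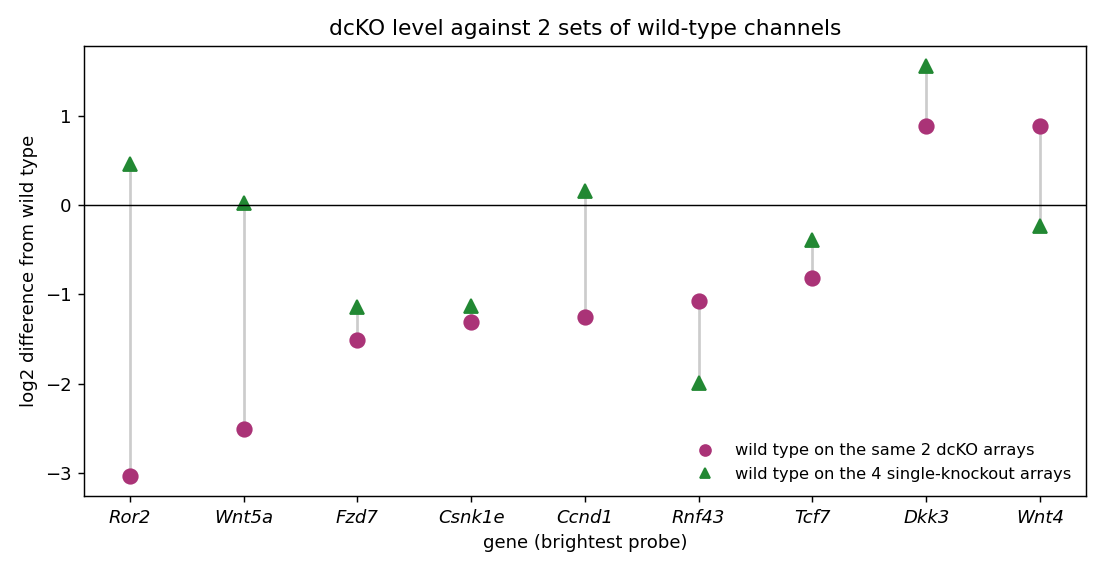
The mean dcKO level minus a wild-type mean (y axis, log2) is plotted for 9 genes (x axis), with circles for the wild-type channels of the same 2 arrays and triangles for the 4 wild-type channels of the single-knockout arrays. *Ror2*, *Wnt5a* and *Ccnd1* move from -3.03, -2.50 and -1.26 to 0.45, 0.02 and 0.16, *Wnt4* changes sign, and *Fzd7* and *Csnk1e* stay below -1.

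The genes whose 6 ratios were most like those of *Ror2*, by root mean square difference among 12460 named genes above background, were *Hoxb13* (0.16), *Adgra3* (0.19) and *Olfr224* (0.25). *Hoxb13*, a homeobox gene, matched *Ror2* in its levels too, with 7.97 and 8.11 in the wild-type channels of the dcKO arrays and no signal above background in the other 10 channels. *Adgra3*, an adhesion G protein-coupled receptor gene, did not: its wild-type level was 8.40 to 9.19 on all 6 arrays, and its dcKO channels read 6.66 and 5.65. Within the Wnt list the nearest gene to *Ror2* was *Wnt5a* and the nearest to *Wnt5a* was *Ror2* (0.57), over 6 arrays. Their dcKO ratios were the lowest of the list (-3.03 and -2.50, the next being -1.51 for *Fzd7*). The pairing thus largely restates those ratios and is not a separate result. The other nearest pairs were *Wnt4* with *Kremen1* (0.36), *Wnt7b* with *Fzd6* (0.36), *Wnt10a* with *Csnk1a1* (0.14), *Fzd10* with *Ccnd1* (0.61), *Axin2* with *Apc2* (0.07), *Lef1* with *Btrc* (0.22) and *Tcf7l1* with *Wnt9a* (0.25). Within the list no filter for signal above background was used. The ratios of *Axin2* and *Lef1* were mostly or wholly between background signals, so their small distances show no shared change.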

How the data were processed

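RNA of keratinocytes from 3 genotypes, each with 2 arrays against wild type, was hybridised to two-colour Agilent mouse arrays. Per the file headers, intensity values were extracted with Feature Extraction 11.0.1.1, and the deposited scanner files hold the median brightness of each spot and of its background, processed intensities and a log10 ratio that was not used here. A further table by the authors gives log2 ratios, made with limma by normexp correction with an offset of 16, loess and removal of the dye effect with ComBat, per the study's methods. That table was used as an alternative, and its columns ran as knockout over wild type. 0 columns of unknown samples were found.

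Median intensities were corrected with normexp (offset 16) and loess normalised in limma 3.58.1 (R 4.3.3). Control spots were left out after background correction and outlier spots were set to missing. Replicate spots were averaged to 55681 probes. Limma was fitted over all 6 arrays with a term for each genotype and one for the dye, which equals the replicate number, and p-values were adjusted by the Benjamini-Hochberg method over all probes. Residual variance rested on 2 degrees of freedom and 5.37 prior ones. A call needed an adjusted p below 0.05 and an absolute log2 change above 1.5. Samples of the same replicate number deviated together (correlations 0.125 to 0.316). The number of arrays limits the precision. The p-values rest on a spread pooled over the genotypes and moderated towards that of all probes. They do not measure the spread of a gene between the arrays of its own genotype alone. Levels are log2 intensities per channel after loess and Aquantile normalisation.

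Probes were named by accession through a RefSeq table for GRCm38.p6 (28331 of 29786 probes with an accession, 95.1%), and a gene is given by its brightest probe. The 10 genes, the 103-gene list and the marker lists were chosen with earlier results of these data known. From the list, genes with an adjusted p below 0.05 and the 5 largest ratios above background per genotype were named, and the genes nearest in ratio by root mean square difference. The fit was tested on simulated data. Alternatives varied the offset, signal, normalisation, dye term, filter, probes and arrays.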

Additional observations from a re-analysis of the deposited data

Results flagged for a closer look

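The ratio of 4 genes differed between genotypes by a test of the difference itself, with dcKO set against Sox4cKO: *Wnt5a* (-2.57), *Ccnd1* (-1.97), *Csnk1e* (-1.41) and *Wnt4* (1.34), with limma adjusted p from 0.0186 to 0.0412. The *Sostdc1* ratio differed between dcKO and Sox11cKO (5.07, adjusted p = 0.0223), but neither knockout nor the wild-type channels of the dcKO arrays were above background for it, so the dcKO ratio could not show a fall and the difference lay in the wild-type channels of the Sox11cKO arrays. For *Wnt4* and *Wnt5a* the knockout channels overlapped the wild-type channels of other arrays. The mean *Wnt5a* level was 6.14 in dcKO and 5.92 in Sox4cKO cells, and that of *Wnt4* 12.19 and 12.59. Neither knockout level thus differed in the direction of its ratio. The *Ccnd1* wild-type level was also high on the dcKO arrays, and the dcKO mean was 0.16 above that of the other wild-type channels. *Csnk1e* was lower in dcKO cells against either wild-type reference.

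In 2 of the 18 genes looked at, 1 of the 6 wild-type channels lay far from the others, its gap to the nearest being 0.715 of the whole range for *Lef1* and 0.657 for *Dkk3*. Chance marks about 1 in 20 groups in this way. *Lef1* was not above background in any channel. The low *Dkk3* value, 7.61, was that of Sox11cKO array 2, whose knockout channel was also low, at 6.59.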

How the results depend on the processing

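All 15 gene differences that passed the adjusted p kept their direction under the alternatives in settings, filters and arrays run for each, 15 in all, but *Wnt5a*, *Ccnd1* and *Wnt4* in dcKO cells turned against another wild-type reference; mean spot signals could not be tried because the files used hold medians. Their calls depended on the setting: 15 of 15 passed with the authors' table and with the dye effect subtracted first, 14 of 14 among probes above background, 12 with median centring, 7 with no replicate block, 4 with the mean of all probes of a gene, 3 with an offset of 50, 0 with processed signals, and 2 and 3 without dcKO array 1 or 2. Of 25 other member values, 12 changed sign in at least 1 alternative and 1, *Wnt7b* in Sox4cKO cells, passed in 3 (adjusted p 0.0216 to 0.0309).

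*Wnt5a* in dcKO cells was -3.18 with processed signals (adjusted p = 0.221) and -2.98 to -2.03 without 1 array, and the members called there were 0 with processed signals and 0 to 1 without 1 array. *Wnt4* was 0.87 with processed signals (adjusted p = 0.215), 0.31 with median centring and 0.88 to 0.89 without 1 array, losing the adjusted p without either Sox4cKO or dcKO array (0.0657 to 0.296). *Ror2* was -5.86 with processed signals, -3.37 with median centring, -2.14 with an offset of 50 and -3.31 to -2.76 without 1 array. Its dcKO level was 5.27, or 5.15 without Aquantile. Against the wild-type channels of the other arrays, an alternative chosen after seeing the data, *Ror2* was 0.45, *Wnt5a* 0.0199, *Ccnd1* 0.16 and *Wnt4* -0.23; the cause was not tested.

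The Wnt list genes past the adjusted p in dcKO cells were 8, against 0 with processed signals, 14 with the authors' table, 4 with the mean of probes, 25 with median centring, 5 with no replicate block, 3 with an offset of 50 and 0 to 14 without 1 array. In Sox11cKO cells they were 2, against 0 with processed signals, the mean of probes, an offset of 50 or the genotype's arrays alone, 1 with no replicate block and 1 to 7 without 1 array. In Sox4cKO cells they were 0, against 2 with the authors' table or the genotype's arrays alone and 0 to 2 without 1 array. For dcKO minus Sox4cKO they were 4, against 0 with processed signals, the mean of probes or an offset of 50, 13 with the authors' table or median centring, 9 with the dye subtracted first, 1 with no replicate block and 0 to 9 without 1 array. For dcKO minus Sox11cKO they were 1, against 0 with processed signals, the mean of probes, an offset of 50 or no replicate block, 10 with the authors' table, 5 with the dye subtracted first, 7 with median centring, 4 among probes above background and 0 to 10 without 1 array. For Sox11cKO minus Sox4cKO they were 0, against 3 with the authors' table, 1 among probes above background and 0 to 4 without 1 array. Over all probes, the 421 called in dcKO cells were 0 with processed signals, 78 with an offset of 50, 720 with median centring and 121 to 549 without 1 array. The 78 called in Sox4cKO cells were 0 with processed signals, 35 with no replicate block, 3 with an offset of 50, 36 with the dye subtracted first, 137 with the authors' table, 123 among probes above background, 193 with the genotype's arrays alone and 0 to 185 without 1 array. The 48 in Sox11cKO cells were 0 with processed signals, an offset of 50 or the genotype's arrays alone, 18 with no replicate block, 129 with the authors' table, 98 among probes above background and 49 to 793 without 1 array. Signal over background limited *Lef1*, *Axin2* and most inhibitors, which could not show a fall.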
